A study of Homo sapiens with 8 samples.

Results

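MDA-MB-231 is an established human breast cancer line with mesenchymal features that lacks the estrogen and progesterone receptors. Polyadenylated RNA was sequenced from cells of this line kept at 20% O2, in 2 libraries with a scrambled short hairpin label (shSC) and 2 libraries whose label names CHD4 as the target of the hairpin (shCHD4). These are 4 of the 8 libraries of the study, chosen by their labels, and the other 4 are the same labels at 1% O2. All cells grew in DMEM with serum and were held at their O2 level for 24 hours. The labels name no other allele or agent. The sources used here do not say whether each hairpin population was a clone or a pool, how many hairpins were used, or whether replicate libraries were grown separately. All p-values below therefore rest on the spread among these libraries alone, and that spread may be technical. The study's title places CHD4 in the regulation of hypoxia-inducible factor activity, and the comparison asks what differs with the CHD4 label in well-oxygenated cells.

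CHD4 is an ATPase that slides and spaces nucleosomes and is the motor of the NuRD complex, which also removes acetyl groups from histones and is known for repressing genes at enhancers and promoters. NF-kB is a family of dimeric transcription factors held in the cytoplasm by inhibitor proteins and released by kinases downstream of cytokine and Toll-like receptors. Its targets include cytokines, adhesion molecules and its own inhibitors, and MDA-MB-231 cells are known for high basal NF-kB activity. ATF4 is a transcription factor made when the initiation factor eIF2 alpha is phosphorylated, and it drives genes of amino acid synthesis and uptake.

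Values are normalised read counts, that is gene reads scaled once per library, with no correction for gene length, so a gene is compared between libraries and not with another gene. The libraries held 24947627 and 27884002 gene reads under shSC and 26152919 and 28272509 under shCHD4, so depth did not separate the labels. Of 19583 rows, the 12645 whose mean over the 8 libraries reached 1 were tested with limma on log2(value + 0.5). A gene is called when its Benjamini-Hochberg adjusted p is under 0.05. Fold changes on this scale understate those of low genes. Because 2 libraries against 2 cannot give a permutation p under 0.333, no permutation test was used. Whether counting used strand is not stated in the sources used here, so reads of overlapping or antisense genes cannot be told apart.

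The targeted transcript did not follow the label. CHD4 was at 299 and 298 under shSC and 293 and 305 under shCHD4, a log2 difference of 0.0018 (95% interval -0.086 to 0.089, adjusted p = 0.968), with the pairs overlapping. CHD4 passed the test as higher under shCHD4 with quantile normalization, by 0.11 (adjusted p = 0.0201), and also when its neighbours' median was subtracted, by 0.20 (adjusted p = 7.48e-04). CHD4 protein was not among the measurements. The groups are therefore called libraries labelled shSC and shCHD4, and each difference below is between labels, not between measured levels of CHD4.

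The other NuRD subunits differed by less than 2-fold. Of 14 tested members, 6 were called higher and 5 lower (median log2 difference 0.071), against 75.6% of all tested genes called, 37% higher and 38.6% lower. The histone-binding subunit RBBP4 had the largest rise, with 90.2 and 94.3 under shSC and 154 and 155 under shCHD4 (log2 difference 0.74, SE 0.046, adjusted p = 4.05e-11). Its paralog RBBP7 (143 and 145 against 205 and 199, log2 difference 0.49) and the deacetylases HDAC1 (106 and 96.5 against 136 and 133, 0.41) and HDAC2 (179 and 178 against 236 and 225, 0.36) were higher too. The scaffold subunit GATAD2B had the largest fall, from 131 and 133 to 86.1 and 88.6 (log2 difference -0.59). MTA1, MTA2, MTA3 and the CHD4 paralog CHD3 were lower, with log2 differences of -0.22, -0.25, -0.35 and -0.12. The MTA2 call was lost after centring on neighbours (-0.0074), and the CHD3 call without shCHD4 replicate 1 (-0.097) and under quantile normalization (-0.045). None of the 14 reached 2-fold in either direction.

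Across all tested genes, 4674 were called higher and 4885 lower in the libraries labelled shCHD4, and the median log2 difference was -0.0091. Which direction had more calls depended on the scaling, with 5292 higher and 4363 lower under quantile normalization. Most of these differences were small. By 2-fold or more, 623 genes were called higher (4.93% of tested genes) and 1021 lower (8.07%). By 4-fold or more, 122 were called higher (0.965%) and 280 lower (2.21%). In none of the 2-fold genes did the pairs of libraries overlap, and over all tested genes they did not overlap in 86.4%. The median standard error was 0.068 on the log2 scale, 0.063 for genes with a mean of at least 5 and 0.157 below it. Since 75.6% of genes passed, a call says little by itself, and gene groups are read below by the share of members past 2-fold and by their median.

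**Figure D1:**
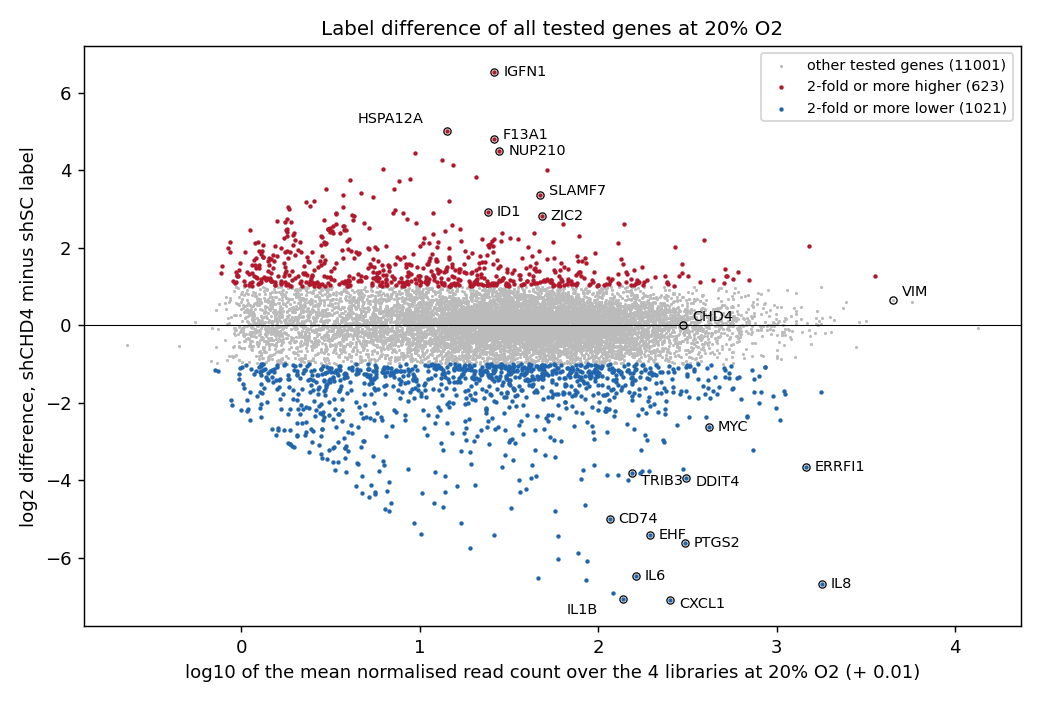
Each point is 1 tested gene at 20% O2, with the log10 mean normalised read count over the 4 libraries on the horizontal axis and the log2 difference between labels on the vertical axis. The 1021 genes lower by 2-fold or more (blue) reach further from 0 at high counts than the 623 higher ones (red), with IL8 and ERRFI1 low at the right of the plot and CHD4 on the line of no difference.

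Cytokines and chemokines made the deepest group of falls. Of 30 genes listed, 29 were in the table and 20 were tested, and 19 of the 20 were called lower, each by 2-fold or more, with a median log2 difference of -5.07. Of the 20, 5 had a mean under 1 in the shCHD4 libraries and passed the filter through their other libraries. Without the filter, 24 of 27 members were called lower and 1 higher. IL18, a member of the interleukin-1 family, was the exception, at 12.6 and 13.4 under shSC and 25.9 and 26.1 under shCHD4 (log2 difference 0.97).

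IL8, the neutrophil chemokine now named CXCL8, was at 3536 and 3590.4 under shSC and 34.6 and 33.5 under shCHD4 (log2 difference -6.69, SE 0.051, adjusted p = 4.81e-24). The growth-related chemokine CXCL1 was at 477 and 532 under shSC and 2.92 and 3.52 under shCHD4 (log2 difference -7.09). Its relative CXCL2 was at 236 and 246 against 1.497 and 1.52, and CXCL3 was at 49.5 and 54.0 against 0.674 and 0.759. Reads of these 3 similar genes may be shared between copies, so the split among them is uncertain. IL1B, a fever-inducing cytokine, was at 275 and 277 under shSC and 1.87 and 1.31 under shCHD4 (log2 difference -7.06), and IL1A at 167 and 171 under shSC and 1.57 and 1.03 under shCHD4 (log2 difference -6.57). IL6 was at 323 and 323 under shSC and 3.37 and 2.93 under shCHD4 (log2 difference -6.47). The granulocyte factor CSF3 was at 179 and 163 against 1.91 and 2.14 and the granulocyte-macrophage factor CSF2 at 121 and 113 against 2.36 and 2.07. IL24, an IL-10 family cytokine, was at 121 and 114 against 1.35 and 1.28. These 10 genes are among the 20 largest falls, which were named on condition that the labels do not overlap, so their separation is no further result. LIF, which signals through the IL-6 receptor subunit gp130, fell less, from 272 and 257 to 77.3 and 73.5 (log2 difference -1.80). Lower RNA per cell and fewer cells of a kind that makes it cannot be told apart in these bulk libraries.

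The chemokine genes and some inhibitors of NF-kB carry a copy of an NF-kB recognition sequence close to their starts, and these stretches are shown because they let the matches in lower chemokine, cytokine and inhibitor genes be compared. They were picked among promoters that hold it, and 8 of 16 cytokine promoters do not. Each line gives the 130 bases before the RefSeq start (GRCh38.p14, another build than the hg19 of the files), 5′ to 3′ along the gene, with the match to GGANTTTCC on either strand in capitals.
IL8 (chr4:73740439-73740568, plus strand): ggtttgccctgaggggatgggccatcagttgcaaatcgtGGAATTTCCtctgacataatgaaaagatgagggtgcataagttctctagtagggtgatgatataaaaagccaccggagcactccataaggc
CXCL1 (chr4:73869263-73869392, plus strand): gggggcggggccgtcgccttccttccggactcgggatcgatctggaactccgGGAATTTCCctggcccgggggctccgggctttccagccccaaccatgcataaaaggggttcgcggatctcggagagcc
CXCL2 (chr4:74099196-74099325, minus strand): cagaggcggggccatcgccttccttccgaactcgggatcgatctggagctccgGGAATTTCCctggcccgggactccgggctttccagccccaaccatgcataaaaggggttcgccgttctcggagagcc
CXCL3 (chr4:74038690-74038819, minus strand): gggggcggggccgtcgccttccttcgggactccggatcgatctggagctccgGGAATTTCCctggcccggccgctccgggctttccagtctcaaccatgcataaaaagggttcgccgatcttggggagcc
IL6 (chr7:22727070-22727199, plus strand): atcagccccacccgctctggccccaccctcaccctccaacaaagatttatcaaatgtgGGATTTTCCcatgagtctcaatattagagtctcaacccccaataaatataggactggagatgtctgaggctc
TNFAIP3 (chr6:137867129-137867258, plus strand): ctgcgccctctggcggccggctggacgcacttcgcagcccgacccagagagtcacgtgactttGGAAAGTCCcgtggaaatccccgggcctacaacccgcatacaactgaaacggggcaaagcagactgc
NFKBIA (chr14:35404750-35404879, minus strand): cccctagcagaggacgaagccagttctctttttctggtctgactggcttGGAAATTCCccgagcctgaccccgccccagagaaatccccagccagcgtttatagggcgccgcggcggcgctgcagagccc

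The motif starts 91 bases before the start in IL8, 78 in CXCL1, 77 in CXCL2, 78 in CXCL3, 72 in IL6, 67 in TNFAIP3 and 81 in NFKBIA. Over the window from 250 bases before to 50 after the start, GGANTTTCC on either strand was in 1.65% of 34961 RefSeq promoters and in 2.31% of the 10035 that matched a tested gene by symbol. It was in 18 of 208 promoters of genes lower by 4-fold or more (8.65%) and in 1 of 91 of those higher by 4-fold or more (1.10%). In the cytokine list 8 of 16 matched promoters held it, so the motif is not common to the list, and in the list of NF-kB subunits and regulators 10 of 25. The AP-1 motif TGANTCA was searched on both strands and counted separately, so that a promoter can hold both. It was in 7.06% of tested genes' promoters, 11.5% of those 4-fold lower and 12.1% of those 4-fold higher. By list, the AP-1 motif was in 5 of 16 matched cytokine promoters and in 4 of 25 of the NF-kB subunits and regulators. The NF-kB motif was chosen because inflammatory genes had moved together in earlier results of these data. The 4-fold lower set includes such genes, so its share is no independent support. A match is a description of the letters and not a bound site.

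The NF-kB pathway itself was lower at the level of its subunits, inhibitors and adaptors, and uneven among its kinases. All 28 listed genes were tested, 25 were called lower, 15 of them by 2-fold or more, and 1 was called higher (median log2 difference -1.13). Among the subunits, RELB fell most, from 113 and 103 to 24.2 and 24.4 (log2 difference -2.13). NFKB1 was at 239.9 and 231 against 86.8 and 88.2 (-1.42), NFKB2 at 234 and 221 against 81.6 and 82.2 (-1.47) and RELA, the main activating subunit, at 169 and 162 against 93.7 and 101 (-0.76). The pairs did not overlap in any of the 4.

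Inhibitors that NF-kB itself induces were among the members that fell most. TNFAIP3, the ubiquitin editor A20 that ends signalling, was at 210.0 and 209 under shSC and 14.5 and 13.3 under shCHD4 (log2 difference -3.86, SE 0.061, adjusted p = 8.68e-20). NFKBIZ, a nuclear co-regulator needed for IL6 induction, was at 103 and 108 against 8.57 and 10.6 (log2 difference -3.40), and NFKBIA, the classical cytoplasmic inhibitor, at 152 and 146 against 50.4 and 50.2 (-1.56). Of the adaptors, TRAF1 was at 284 and 268 under shSC and 16.6 and 17.3 under shCHD4 (log2 difference -3.99), and its 40 nearest tested genes had a median of -0.74. The ubiquitin ligase BIRC3 was at 386 and 437 against 51.5 and 52.4 (-2.97) and the interleukin-1 receptor kinase IRAK2 at 153 and 155 against 11.6 and 10.6 (-3.73).

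Among the other kinases named, differences were smaller than that of IRAK2. CHUK, the IKK alpha kinase, was at 60.6 and 65.2 under shSC and 63.6 and 62.4 under shCHD4, with overlapping pairs (log2 difference 0.0026, 95% interval -0.11 to 0.12, adjusted p = 0.966). IKBKB, the IKK beta kinase, was at 43.4 and 40.8 against 29.6 and 30.2 (log2 difference -0.49). MAP3K14, the kinase that starts the non-canonical branch, was the single called rise, at 36.7 and 36.0 against 47.1 and 46.7 (0.36), and MAP3K8 did not pass (log2 difference -0.22, adjusted p = 0.151).

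**Figure D2:**
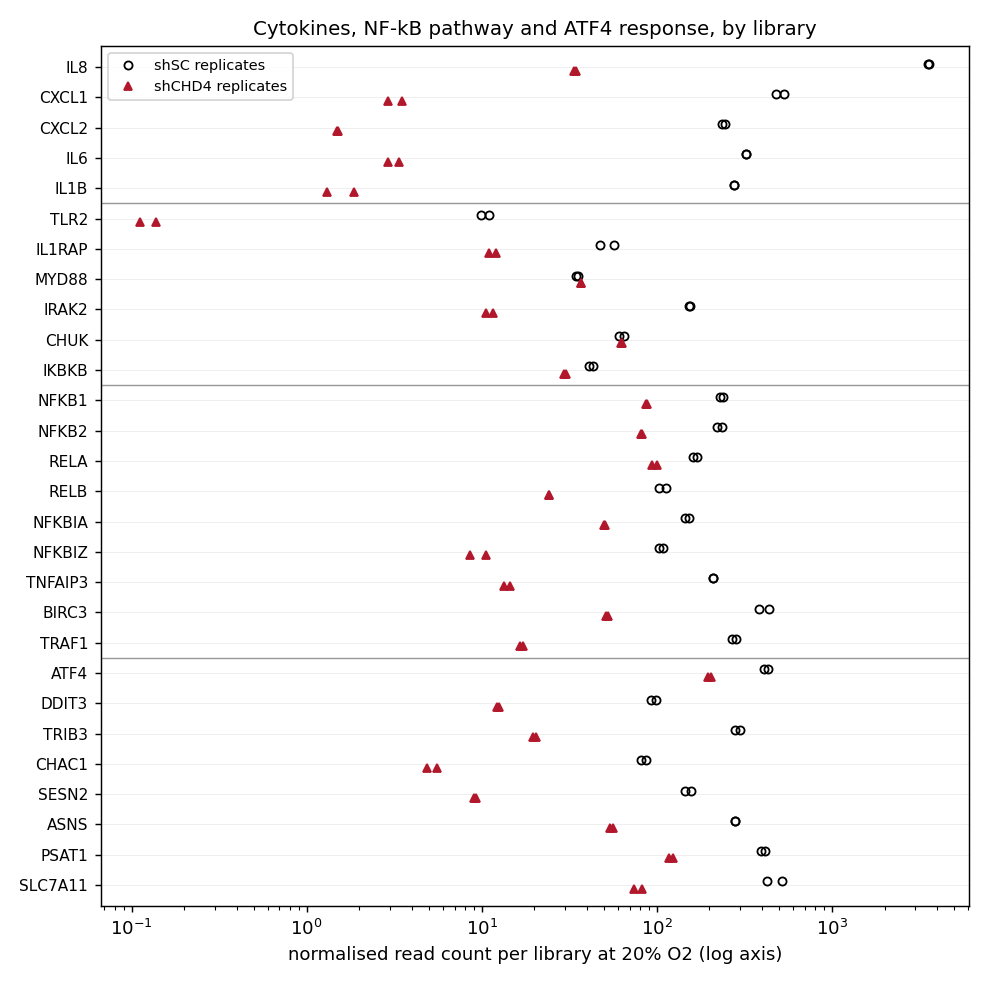
Normalised read counts of each of the 4 libraries at 20% O2 on a log axis, with circles for the 2 shSC and triangles for the 2 shCHD4 replicates. From top to bottom the blocks are cytokines, receptors and kinases, NF-kB subunits with inhibitors and adaptors, and genes of the ATF4 response. The symbols of the labels meet in CHUK and lie close in MYD88. In the cytokines the ratios of the label means run from 102 (IL6) to 173 (IL1B).

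Receptors and transducers of cytokine signals were mixed. Of 25 tested members of 31 listed, 16 were called lower, 9 by 2-fold or more, and 3 higher (median log2 difference -0.39), with 2 of the 25 under 1 in the shCHD4 libraries. TLR2, the receptor of bacterial lipopeptides, was at 9.97 and 10.96 under shSC and 0.112 and 0.138 under shCHD4 (log2 difference -4.13). IL7R was at 41.4 and 40.9 against 7.07 and 7.04, the interleukin-1 co-receptor IL1RAP at 47.2 and 56.8 against 12.05 and 11, and TNFRSF10B, a death receptor for TRAIL, at 685 and 671 against 131 and 131. TNFRSF1B, a tumour necrosis factor receptor, rested on 99 reads under shSC and 2 under shCHD4, a ratio of 54.0 (95% interval 14.6 to 452). The adaptor MYD88 did not pass, at 35.3 and 34.6 against 36.9 and 36.9 (adjusted p = 0.248), although it did after centring on its neighbours, by 0.40. STAT3 did not pass either (0.08, adjusted p = 0.0777), and centring called it at -0.11 and quantile normalization at 0.18.

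Every tested gene of the ATF4 and amino acid response was lower. All 25 were called lower, 17 by 2-fold or more, with a median log2 difference of -1.48, against 8.07% of all tested genes past 2-fold in that direction. Of the 25, 1 had a mean under 1 in the shCHD4 libraries and passed the filter through its other libraries, and without the filter 23 were called lower. The factor's own transcript fell from 429 and 410.0 to 204 and 195 (log2 difference -1.07). Among its partner factors and effectors, DDIT3, the CHOP transcription factor, was at 98.4 and 92.3 against 12.6 and 12.2 (-2.89), and ATF3 at 83.1 and 75.9 against 4.42 and 4.93 (-3.95). TRIB3, a pseudokinase that dampens the response, was at 300.4 and 281 under shSC and 19.6 and 20.5 under shCHD4 (log2 difference -3.82, SE 0.054, adjusted p = 2.12e-20).

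SESN2, a sestrin that restrains mTORC1, was at 158 and 145 under shSC and 8.98 and 9.24 under shCHD4 (log2 difference -3.98), and CHAC1, which degrades glutathione, at 87.1 and 81.3 under shSC and 5.54 and 4.90 under shCHD4 (-3.89). NUPR1, a stress-induced nuclear protein, rested on 5 reads under shCHD4, with a ratio of 84.4 (95% interval 35.9 to 261). Enzymes and transporters of amino acids fell too. ASNS, which makes asparagine, was at 279 and 278 against 56.6 and 54.3 (-2.32), and the serine synthesis enzyme PSAT1 at 394 and 412 against 124 and 118 (-1.73). SLC7A11, the cystine importer, was at 426 and 518 against 73.9 and 81.9 (-2.59). The pairs did not overlap in any of these genes. The motif TGATGNAA, the core of the sites that ATF4 shares with C/EBP factors, was in 9 of 20 matched promoters of this list, in 2.70% of those of all tested genes and in 3.62% of all RefSeq promoters. That motif was chosen after the results were seen.

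The genes listed for endoplasmic reticulum stress were split. Of 22 tested, 8 were called higher, 1 by 2-fold or more, and 9 lower, 5 by 2-fold or more (median log2 difference -0.018). The stress sensor ERN1, or IRE1 alpha, was at 57.7 and 58.8 against 7.90 and 6.62 (log2 difference -2.93, SE 0.09, adjusted p = 1.63e-15), and its substrate XBP1 at 405 and 388 against 80.4 and 79.2 (-2.31). The phosphatase subunit PPP1R15A, which reverses eIF2 alpha phosphorylation, was at 1011 and 973 against 277 and 253 (-1.90), HERPUD1 at 176 and 169 against 57.7 and 54.8 (-1.61) and the chaperone HSPA5 at 1153 and 1129.9 against 471 and 442 (-1.32). DNAJC3, an inhibitor of eIF2 alpha kinases on chromosome 13, was the member above 2-fold, at 71.5 and 78.7 against 153 and 159.9 (1.05), in a region whose 40 nearest tested genes had a median of 0.79.

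Immediate early genes, which growth signals switch on within minutes, were lower as well. Of 25 tested, 21 were called lower, 15 by 2-fold or more, and 1 higher (median log2 difference -1.32), with 3 of the 25 under 1 in the shCHD4 libraries. EGR1 was at 359.7 and 358 under shSC and 26.8 and 24.7 under shCHD4 (log2 difference -3.78, SE 0.084, adjusted p = 1.21e-17), KLF4 at 326 and 315 against 44.0 and 45.1 (-2.83) and the small MAF protein gene MAFF at 199 and 194 against 29.0 and 28.1 (-2.76). MYC was at 729 and 704 under shSC and 115 and 115 under shCHD4 (log2 difference -2.63), and its 40 nearest tested genes on chromosome 8 had a median of -0.94, and centred on them MYC was at a log2 difference of -1.70. EGR3 was low throughout, with 205 reads against 7. The AP-1 subunits fell less, with FOS at 8.57 and 9.99 against 3.67 and 3.17 (-1.32), JUNB at 309 and 296 against 77.7 and 76.6 (-1.96), FOSL1 at 470.4 and 444 against 272 and 275 (-0.74) and JUN at 341 and 328 against 202 and 201 (-0.73). KLF2, a zinc-finger factor, was the called rise, at 16.4 and 15.1 against 32.7 and 33.5 (1.05).

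Feedback and target genes of the ERK pathway followed the same direction. Of 23 tested, 16 were called lower, 11 by 2-fold or more, and 4 higher, none by 2-fold (median log2 difference -0.99). ERRFI1, which binds and inhibits the EGF receptor, was at 2694 and 2730.0 under shSC and 217 and 214 under shCHD4 (log2 difference -3.65, SE 0.042, adjusted p = 1.34e-21). The ERK and p38 phosphatase DUSP1 was at 339.5 and 332 against 42.1 and 43.4 (-2.96), DUSP5 at 295 and 284 against 64.9 and 62.6 (-2.17), DUSP8 at 13.4 and 10.9 against 2.2 and 2.38 (-2.18), and PHLDA1 at 1708 and 1814 against 318 and 329 (-2.44). CCND1, the ERK target cyclin D1, was among the 4 that were higher, by 0.55.

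In the EGF receptor family 9 of 12 tested members were called lower, 6 by 2-fold or more, and 3 higher. The ligand HBEGF was at 538 and 541 under shSC and 105 and 104 under shCHD4 (log2 difference -2.37), and the ligand EREG at 48.4 and 53.8 against 26.9 and 29.6 (-0.84). EGFR itself was at 436 and 432 against 285 and 298 (-0.57), its partner ERBB3 at 3.60 and 4.196 against 0.861 and 1.14 (-1.56) and the receptor inhibitor LRIG1 at 89.5 and 84.0 against 24.3 and 23.4 (-1.84). The neuregulin NRG2 rose from 0.497 and 0.706 to 2.96 and 3.83 (1.82).

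Antigen presentation split by class. All 8 tested class II genes were called lower by 2-fold or more, with a median log2 difference of -3.10. With HLA-DRB1 and HLA-DPA1, which had no read under shCHD4, taken at their bounds, the median was -4.64. Those bounds are plain ratios, while the other members stayed on the tested scale, which understates differences of low genes. The -4.64 therefore mixes unlike scales and is no measure of size. Of these 8, 5 had a mean under 1 in the shCHD4 libraries and passed the filter through their other libraries. Without the filter 11 of 13 were called lower and 1 higher. CIITA, the master activator of class II genes, was at 11.7 and 10.5 under shSC and 0.112 and 0.069 under shCHD4, 565 reads against 5, a ratio of 123 (95% interval 52.5 to 381). Its target CD74, the invariant chain, was at 230.3 and 220.0 under shSC and 6.17 and 7.04 under shCHD4 (log2 difference -4.99, SE 0.078, adjusted p = 7.52e-20). HLA-DRA had 945 reads under shSC and 3 under shCHD4, a ratio of 343 (95% interval 117 to 1669). HLA-DRB1 and HLA-DPA1 had no read under shCHD4 and were at least 70.9-fold and 69.4-fold lower, counting 3 reads over the group as the floor. HLA genes are polymorphic and similar, so reads can be misplaced between them.

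Class I genes hardly differed as a group. Of 18 tested, 6 were called lower, 1 by 2-fold or more, and 5 higher (median log2 difference -0.023). HLA-B was at 257 and 248 against 115 and 109 (-1.17) and the light chain B2M at 516 and 542 against 325 and 319 (-0.71). HLA-C did not pass, at 101 and 93.2 against 99.1 and 98.2 (adjusted p = 0.665), but was called lower after centring on its neighbours (log2 difference -0.47) and higher under quantile normalization (0.13), and the immunoproteasome subunit PSMB9 was higher, with a log2 difference of 0.71.

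Interferon-stimulated genes were uneven. Of 33 tested, 21 were called lower, 7 by 2-fold or more, and 4 higher, 1 by 2-fold or more (median log2 difference -0.34). BST2, or tetherin, was at 62.8 and 59.6 under shSC and 6.89 and 7.002 under shCHD4 (log2 difference -3.05, SE 0.072, adjusted p = 3.23e-17). IFI27 was at 13.3 and 12.8 against 0.15 and 0.517 (-4.06) and XAF1 at 18.0 and 19.8 against 3.52 and 3.24 (-2.32). The transducers IRF9 (23.5 and 22.8 against 7.93 and 8.21) and IRF7 (14.4 and 13.6 against 5.35 and 4.76) had log2 differences of -1.46 and -1.39. ISG15, a ubiquitin-like modifier, did not pass, at 27.2 and 25.7 against 28.0 and 27.2 (adjusted p = 0.428), and SAMD9L was higher by 1.29.

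Complement and coagulation genes were lower in 13 of 17 tested, 9 by 2-fold or more, and higher in 3 (median log2 difference -1.0), with 2 of the 17 under 1 in the shCHD4 libraries, C3 among them. C3, the central complement protein, was at 90.0 and 93.0 under shSC and 0.599 and 0.414 under shCHD4, 4678 reads against 28, a ratio of 182 (95% interval 126 to 274). Factor B, CFB, was at 58.8 and 56.4 against 7.48 and 6.35 (-2.97) although its 40 nearest tested genes on chromosome 6 had a median of 0.56. The proteases that start the classical pathway were low too, with C1R at 12.3 and 12.3 against 1.72 and 1.52 (-2.59) and C1S at 6.25 and 5.90 against 0.861 and 0.828 (-2.29). Tissue factor, F3, was at 618 and 633 against 203 and 205 (-1.61), and thrombomodulin, THBD, at 193 and 198 against 58.0 and 56.8 (-1.76).

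Genes of adhesion and matrix were lower more often than higher. Of 18 tested adhesion molecules, 10 were called lower, 8 by 2-fold or more, and 5 higher, 2 by 2-fold or more (median log2 difference -0.75). L1CAM, a neural adhesion molecule, was at 153 and 149.8 under shSC and 1.87 and 2.35 under shCHD4 (log2 difference -5.87, SE 0.078, adjusted p = 7.81e-21). ICAM1, the leukocyte ligand, was at 574 and 542 under shSC and 42.7 and 42.3 under shCHD4 (log2 difference -3.70). The mesenchymal cadherin CDH11 was at 129 and 141 against 28.0 and 27.7 (-2.26) and the laminin receptor BCAM at 24.8 and 22.2 against 5.16 and 6.07 (-1.97). NCAM2 was higher, with 12 reads under shSC and 126 under shCHD4, a ratio of 9.63 (95% interval 5.32 to 19.1).

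Of 27 tested integrins, laminins and matrix glycoproteins, 17 were called lower, 9 by 2-fold or more, and 6 higher, 1 by 2-fold or more (median log2 difference -0.40). Fibronectin, FN1, was at 1269.8 and 1251 under shSC and 366 and 393 under shCHD4 (log2 difference -1.73, SE 0.049, adjusted p = 4.17e-16), and ITGA5, the alpha subunit of its receptor, at 355 and 341 against 102 and 103 (-1.76). Tenascin C, TNC, was at 319.9 and 306 under shSC and 30.8 and 35.8 under shCHD4 (log2 difference -3.22), with a neighbour median of -0.65. LAMA5, of laminin-511, was the member more than 2-fold higher, at 159 and 154 against 304 and 359 (1.08). Among 19 tested collagen chains 8 were called lower, 4 by 2-fold or more (21.1%, against 8.07% of all tested genes), and 7 higher, none by 2-fold. Of the 19, COL4A5 and COL27A1 had a mean under 1 in the shCHD4 libraries and passed the filter through their other libraries. COL4A5 had 529 reads under shSC and none under shCHD4, at least 192-fold lower against the floor of 3 reads. COL27A1 was at 11.3 and 12.4 against 0.486 and 0.69 (-3.51). Their neighbour medians were -0.57 and -0.55. COL4A2, on chromosome 13, was higher at 232 and 227 against 454 and 458 (0.99), near the median of 0.81 of its neighbours.

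Proteases and the plasminogen system were lower in 15 of 21 tested, 7 by 2-fold or more, and higher in 5, 2 by 2-fold or more (median log2 difference -0.71). PLAU, the urokinase that activates plasminogen, was at 1177 and 1117 under shSC and 234 and 221 under shCHD4 (log2 difference -2.33, SE 0.045, adjusted p = 1.82e-18). SERPINE2, a protease inhibitor, was at 177 and 181 against 38.8 and 38.04 (-2.20). The collagenase MMP1 was at 103 and 106 against 27.7 and 24.9 (-1.98) and ADAMTS6 at 75.9 and 76.2 against 14.3 and 14.9 (-2.34). The sheddase ADAM12 was higher, at 1.16 and 1.04 against 6.17 and 7.69 (2.21), as was the metalloproteinase inhibitor TIMP4, at 3.56 and 3.64 against 17.4 and 15.4 (2.04). In prostaglandin synthesis 6 of 11 tested genes were called lower, 3 by 2-fold or more, and 4 higher. PTGS2, the inducible cyclooxygenase, was at 569 and 632 under shSC and 11.4 and 12 under shCHD4 (log2 difference -5.62), and HPGD, which degrades prostaglandins, rose from 21 to 111 reads.

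Epithelial identity genes were lower in 17 of 26 tested members of 42 listed, 11 by 2-fold or more, and higher in 6 (median log2 difference -0.80). Those past 2-fold numbered 6 with a filter on a mean of 5 and 7 with a pseudocount of 2. Of the 26, 4 had a mean under 1 in the shCHD4 libraries and passed the filter through the others, and without it 19 of 41 were called lower and 6 higher. EHF, an epithelial ETS factor, was at 378 and 388 under shSC and 8.05 and 9.002 under shCHD4 (log2 difference -5.41, SE 0.06, adjusted p = 9.66e-22). The tight junction protein CLDN1 was at 95.5 and 107 against 12.3 and 12.8 (-2.96), CLDN7 at 19.7 and 17.6 against 2.2 and 2.93 (-2.66), and keratin KRT7 at 191 and 174 against 38.1 and 40.4 (-2.20). KRT8 was higher, at 125 and 118 against 243 and 234 (0.97). Desmoplakin, DSP, was higher too, at 85.7 and 86.7 against 223 and 239 (1.42), with a neighbour median of 0.76. E-cadherin, CDH1, was under 1 in each library (0.331 and 0.111 against 0.15 and 0.276).

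Mesenchymal genes did not move as a group. Of 18 tested, 10 were called lower and 7 higher, 2 in each direction by 2-fold or more (median log2 difference -0.34). Vimentin, VIM, was higher at 3523 and 3471 against 5516 and 5501 (0.66), as were S100A4 at 23.3 and 23.1 against 65.6 and 62.1 (1.44) and the matrix glycoprotein SPARC at 0.372 and 0.52 against 6.55 and 6.11 (2.85). The repressor ZEB2 was lower at 39.3 and 38.2 against 19.2 and 20.7 (-0.94). Of 23 YAP and TEAD pathway genes 14 were called lower, 2 by 2-fold or more, and 6 higher. The matricellular target CTGF was at 1479 and 1490.4 against 413 and 418 (-1.84), CYR61 at 1651 and 1617 against 925 and 907 (-0.83), and TEAD1 at 431 and 472 against 237 and 257 (-0.87).

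Deep falls were found in further genes. FABP5, a fatty acid carrier with many processed copies in the genome, had 1042 reads under shSC and none under shCHD4, at least 379-fold lower against the floor of 3 reads. GPR176, an orphan receptor, had 681 reads and none, at least 248-fold lower. ADM2, a calcitonin-family peptide, was at 39.5 and 36.3 under shSC and 0.187 and 0.241 under shCHD4, a ratio of 176 (95% interval 100.3 to 340.4). HOXB9, a homeobox factor, was at 55.3 and 52.5 under shSC and 3.85 and 3.79 under shCHD4 (log2 difference -3.65). CD274, the checkpoint ligand PD-L1, was at 159.6 and 167 against 35.6 and 35.4 (-2.19), and the antiapoptotic MCL1 at 1645 and 1732 against 523 and 521 (-1.69), while BBC3, the proapoptotic PUMA, was at 25.5 and 23.6 against 3.52 and 4.14 (-2.54). Of 22 tested BCL2 family and death receptor genes 10 were called lower, 7 by 2-fold or more, and 8 higher, none by 2-fold.

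The largest rises named were mostly of transcripts that were low under shSC. Those with an shSC mean under 1, here and in the next paragraph, passed the filter through the shCHD4 libraries. IGFN1, HSPA12A and SCIN are among them, and their low level under shSC is no further result. IGFN1, a muscle protein with immunoglobulin and fibronectin domains, was at 0.0414 and 0.111 under shSC and 50.1 and 54.7 under shCHD4, 4 reads against 2927, a ratio of 671 (95% interval 262 to 2465). HSPA12A, a distant HSP70 relative, was at 0.621 and 0.186 under shSC and 28.5 and 27.4 under shCHD4 (log2 difference 5.02, SE 0.16, adjusted p = 3.89e-15). F13A1, the A subunit of coagulation factor XIII, was at 1.28 and 1.41 under shSC and 52.2 and 49.5 under shCHD4 (log2 difference 4.80, neighbour median 0.79). NUP210, a membrane nucleoporin, was at 1.78 and 2.04 under shSC and 53.0 and 55.1 under shCHD4 (log2 difference 4.501). SCIN, an actin-severing gelsolin relative, was at 0.993 and 0.78 against 25.9 and 26.0, and ARHGAP30, a GTPase-activating protein, at 0.952 and 1.52 against 30.1 and 28.8. These genes were likewise named for their size and lack of overlap.

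Further rises were found in genes of several kinds. SLAMF7, an immune cell surface receptor, was at 7.65 and 8.43 under shSC and 89.0 and 83.8 under shCHD4 (log2 difference 3.35). MEGF6 was at 2.69 and 1.93 against 39.4 and 38.7, the endocytic protein gene AMPH at 0.91 and 0.631 against 17.6 and 15.97, PLCB1, a phospholipase C, at 0.745 and 0.743 against 14.2 and 13.04 and SLC37A1 at 0.662 and 0.631 against 14.6 and 14.8. GAS7, GMFG, TFCP2L1 and FGF13 differed by 3.73, 3.41, 3.35 and 3.51 on the log2 scale. FGF13 rested on 3 reads under shSC, a ratio of 100.3 (95% interval 34.0 to 489). Among noncoding RNAs, LOC100505817 was at 5.46 and 5.76 against 96.3 and 98.9 (4.01), LINC-ROR at 0.828 and 0.409 against 10.4 and 10.2 (3.30) and UCA1 at 0.124 and 0.0743 against 5.16 and 4.90 (3.21).

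Of the cancer-testis antigens, genes normally silent outside the germ line, 5 of the 20 in the table were tested, and 4 were called higher, 3 by 2-fold or more. Without the filter 8 of 20 were called higher and 2 lower. MAGEA12, which passed the filter through the shCHD4 side, was at 0.372 and 0.371 under shSC and 18.5 and 18.2 under shCHD4 (log2 difference 4.43). CSAG1 lies in the same cluster on chromosome X but is not in the list, and it passed the filter in the same way. It was at 0.248 and 0.297 under shSC and 13.1 and 11.3 under shCHD4 (4.03). MAGED1, which many tissues express, was at 66.5 and 64.4 against 135 and 135 (1.04), and MAGED2 was at 184 and 171 against 362 and 350.4 (1.00). Both were expressed under each label, so the count past 2-fold is not one of silent genes alone. Genes of this family are similar, so reads can be split between them. In the S100 family 8 of 10 tested members were called higher, 3 by 2-fold or more, and 1 lower (median log2 difference 0.52), with S100A10, the annexin A2 partner, at 171 and 164 against 435 and 412 (1.33).

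TGF-beta and BMP signalling moved in both directions. Of 31 tested, 13 were called higher, 7 by 2-fold or more, and 18 lower, 8 by 2-fold or more (median log2 difference -0.27). Among ligands, BMP4 rose from 24.8 and 24.1 to 66.4 and 63.5 (1.39) and the inhibin chain INHBB from 20.1 and 20.3 to 92.8 and 89.7 (2.15). BMP2 fell from 9.10 and 9.02 to 0.524 and 0.931 (-2.98), the activin chain INHBA from 36.8 and 35.2 to 2.69 and 2.41 (-3.58) and the stress cytokine GDF15 from 175 and 153 to 6.32 and 5.90 (-4.63). Of the receptors, TGFBR3, or betaglycan, was higher at 11.2 and 10.5 against 51.6 and 54.3 (2.24) and TGFBR2 lower at 714 and 728 against 207 and 209 (-1.79), in a region with a neighbour median of -0.51.

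The BMP target genes ID1 and ID3 encode dominant-negative helix-loop-helix factors. ID1 was at 5.09 and 5.50 under shSC and 44.0 and 42.1 under shCHD4 (log2 difference 2.91, SE 0.078, adjusted p = 2.09e-16), and ID3 was at 1.49 and 1.60 under shSC and 14.9 and 14.3 under shCHD4 (2.88). The inhibitory SMAD6, another BMP target, was at 4.10 and 3.34 against 13.9 and 15.3 (1.85), and FST, an activin antagonist, was lower at 158 and 171 against 24.1 and 23.4 (-2.76). ZIC2, a neural zinc-finger factor on chromosome 13 that belongs to no list here, was at 11.2 and 12.2 under shSC and 84.5 and 85.1 under shCHD4 (log2 difference 2.81, neighbour median 0.70).

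DNA replication genes were higher. Of 33 tested, 26 were called higher, 7 by 2-fold or more, and 4 lower, none by 2-fold (median log2 difference 0.53). The S-phase cyclin CCNE1 was at 3.35 and 3.31 under shSC and 18.7 and 17.0 under shCHD4 (log2 difference 2.26, SE 0.1, adjusted p = 3.27e-13), and CCNE2 was at 24.1 and 24.2 under shSC and 79.0 and 80.6 under shCHD4 (1.70). The licensing factor CDT1 was at 31.7 and 29.3 against 81.9 and 84.2 (1.43), the helicase subunit MCM3 at 189.7 and 182 against 453 and 443 (1.27) and the GINS subunit GINS2 at 19.8 and 15.5 against 41.5 and 40.5 (1.20). These last 3 genes had neighbour medians of 0.69, 0.52 and 0.52, and after centring on neighbours 4 members of the list were higher by 2-fold or more in place of 7. The sliding clamp PCNA was at 154 and 155 against 263 and 243 (0.71). Mitosis genes moved less, with 18 of 30 called higher, 1 by 2-fold or more, and 3 lower (median 0.16). KIF20A, a kinesin of cytokinesis, was at 75.8 and 71.9 against 192 and 179 (1.32), TOP2A at 551 and 582 against 1004 and 1018 (0.83) and the proliferation marker MKI67 at 735 and 741 against 872 and 939.6 (0.29).

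Housekeeping groups stayed near the centre, although many members were called. Of 75 tested cytosolic ribosomal protein genes 30 were called higher and 26 lower, none by 2-fold (median log2 difference 0.055). RPL10 had the largest difference at 1092 and 1028 against 631 and 593 (-0.79), with a neighbour median of -0.47. Some other members lost their call after centring on neighbours. Of 40 respiratory chain genes 22 were called higher and 8 lower, none by 2-fold (median 0.15). Cholesterol genes were called higher in 7 of 25 and lower in 11, with the sterol sensor partner INSIG1 at 179 and 181 against 56.3 and 55.1 (-1.68). NRF2 and glutathione genes were called higher in 9 of 22 and lower in 8, and NFE2L2, which encodes NRF2, was at 264 and 270.2 against 126 and 123 (-1.102). Chromatin remodellers outside NuRD were called higher in 9 and lower in 10 of 25, with CHD2 lower at 172 and 165 against 71.7 and 74.2 (-1.20) as the member past 2-fold. Polycomb genes were called higher in 6 and lower in 9 of 21, with CBX2 past 2-fold at 8.57 and 8.84 against 26.3 and 27.1 (1.56). Semaphorin, ephrin and Eph genes were called lower in 18 of 30, 7 by 2-fold or more, and higher in 8, with the receptor NRP1 at 736 and 744 against 292 and 296 (-1.33).

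**Figure D3:**
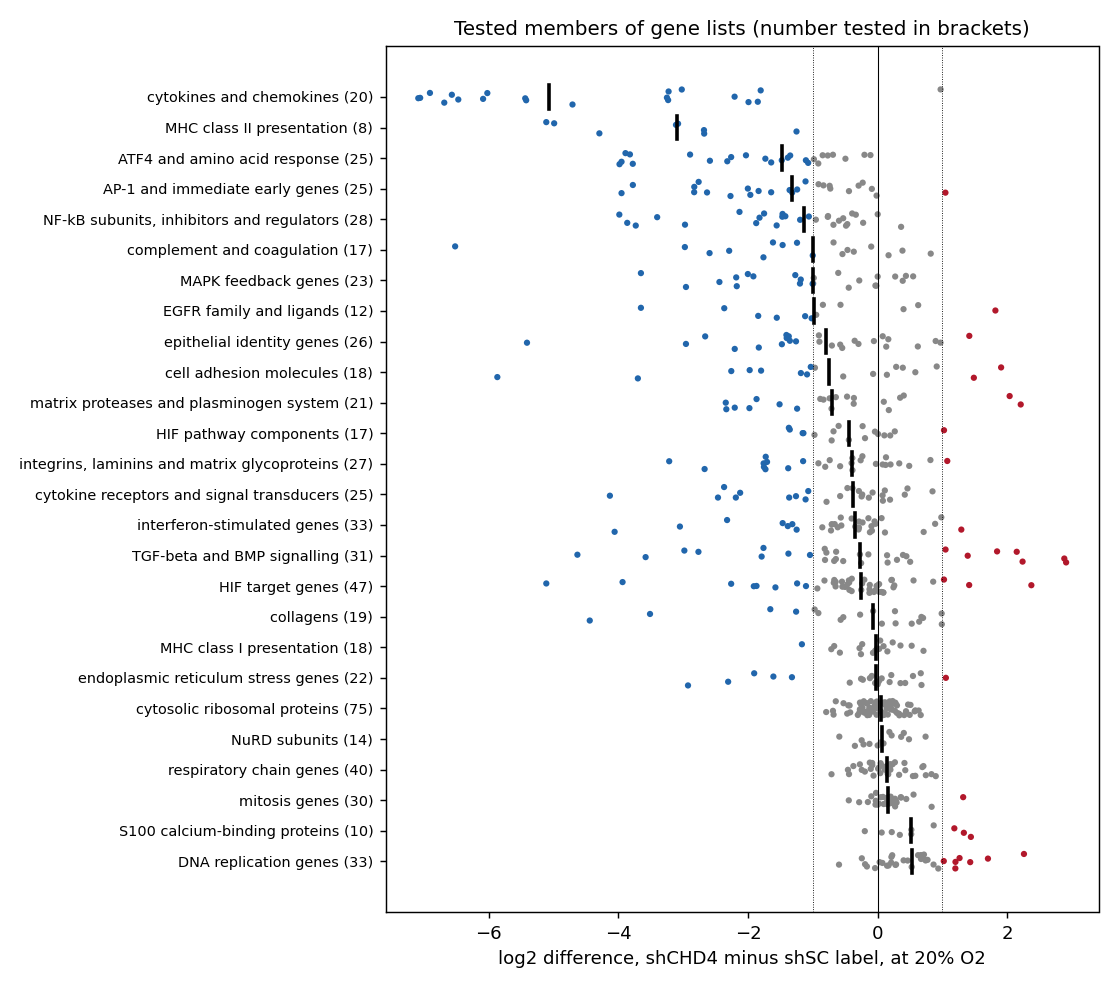
Tested members of 26 gene lists as points, with the log2 difference between labels at 20% O2 on the horizontal axis and the black bar at each list's median. Red and blue points are called genes past 2-fold (dotted lines). Medians run from -5.07 for cytokines and chemokines to 0.53 for DNA replication genes, and the ribosomal protein and respiratory chain members all lie within 2-fold.

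The targets of the hypoxia-inducible factors (HIFs), transcription factors degraded in the presence of oxygen, were on balance a little lower at 20% O2. Of 47 tested, 28 were called lower, 8 by 2-fold or more, and 9 higher, 3 by 2-fold or more (median log2 difference -0.25). Of the 47, 4 had a mean under 1 in the shCHD4 libraries, CA12 among them, and passed the filter through the others, and without it 24 were called lower and 9 higher. CA12, a carbonic anhydrase at the cell surface, was at 33.0 and 34.2 under shSC and 0.524 and 0.448 under shCHD4, 1719 reads against 27, a ratio of 69.4 (95% interval 47.5 to 106). DDIT4, an mTORC1 inhibitor, was at 604 and 567 under shSC and 39.0 and 36.6 under shCHD4 (log2 difference -3.94, SE 0.049, adjusted p = 3.10e-21). VEGFA, the angiogenic growth factor, was at 666 and 666 under shSC and 185 and 179 under shCHD4 (log2 difference -1.87). The lipoprotein receptor VLDLR, which is also in the ATF4 list, was at 48.9 and 49.5 against 10.4 and 9.42 (-2.26) and STC2 at 5.88 and 6.20 against 1.27 and 1.21 (-1.91).

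Glycolytic targets were mixed. LDHA, which makes lactate, was at 1588 and 1570.0 against 1480.2 and 1418 (-0.12), a sign that turned to 0.14 after centring on neighbours and 0.010 under quantile normalization. Its call was also lost without shCHD4 replicate 2 (-0.093) or shSC replicate 1 (-0.12). PGK1 was at 662 and 655 against 798 and 765 (0.25), a call lost after centring (0.052), and the aldolase ALDOC was higher at 0.372 and 0.223 against 1.76 and 1.48 (1.41). CA9, a hypoxia marker that is nearly silent at this O2 level, was at 0.207 and 0.483 against 0.15 and 0.0345, 18 reads against 5. Its call was lost without shCHD4 replicate 2 (-0.36) or shSC replicate 2 (-0.26), with only the 4 libraries at 20% O2, with no filter, with a pseudocount of 2 and under quantile normalization. RORA rose from 15 to 203 reads, a ratio of 12.4 (95% interval 7.35 to 22.6). Of 17 tested HIF pathway genes 11 were called lower, 4 by 2-fold or more, and 3 higher, 1 by 2-fold or more (median -0.44). Of the alpha subunits, HIF1A was at 559 and 618 against 350.5 and 369 (-0.71) and EPAS1 at 269.9 and 271 against 104 and 107 (-1.35). VHL, the ligase subunit that marks them for degradation, was at 215 and 226 against 84.1 and 85.9 (-1.37). The coactivator EP300 was at 202 and 203 against 85.0 and 96.2 (-1.16), ARNT2 at 25.3 and 22.8 against 10.3 and 10.9 (-1.14) and the prolyl hydroxylase EGLN3 at 2.07 and 1.71 against 4.98 and 3.79 (1.03).

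Part of the difference between labels ran in blocks along chromosomes. The 229 tested genes of chromosome 13 had a median log2 difference of 0.69, 79.9% of them were called higher and 24.9% were higher by 2-fold or more, against 37% and 4.93% of all tested genes. Chromosome 6 had a median of 0.27 and chromosome 8 of -0.31. For each of 12355 genes with a known place in the order, the median of its 40 nearest tested genes was taken. It was at least 0.5 for 462 genes and at most -0.5 for 395, with a 5th percentile of -0.43 and a 95th of 0.44 over all. Of these 857 genes, 779 had a neighbour median beyond 0.5 in the same direction in the 4 libraries at 1% O2. The lowest value, -1.12, was on chromosome 8 around SQLE, and the highest, 0.90, on chromosome 6.

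**Figure D4:**
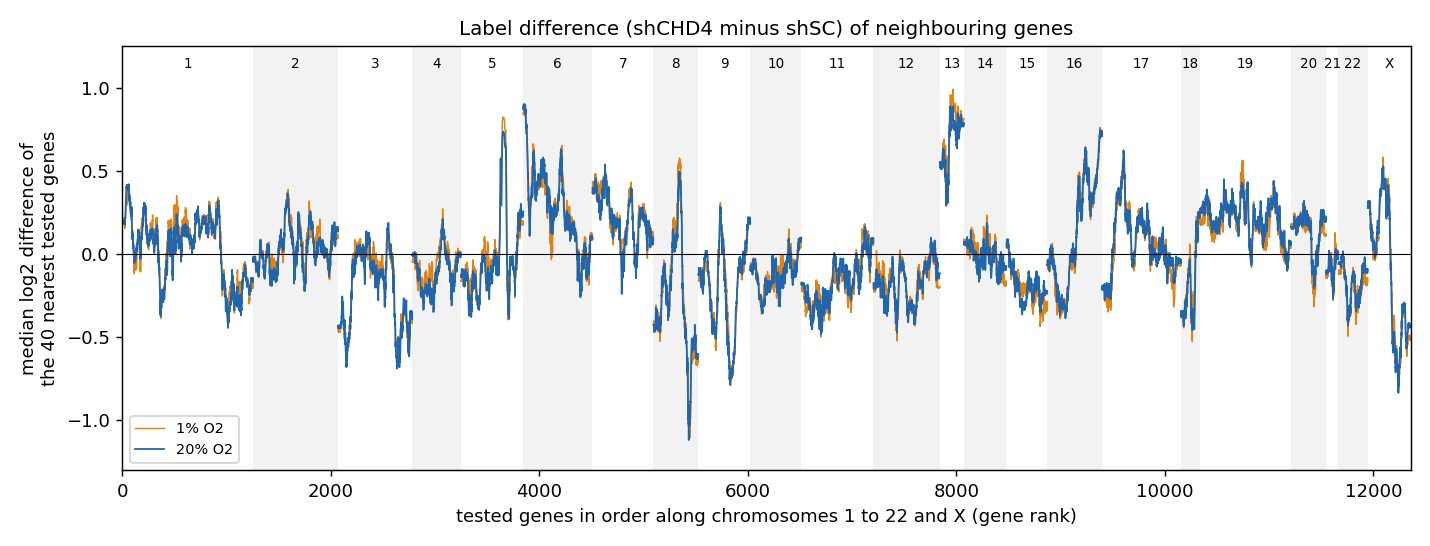
The median log2 difference of the 40 nearest tested genes along chromosomes 1 to 22 and X, in gene order, at 20% O2 (blue) and 1% O2 (orange). The 2 lines run together, with chromosome 13 raised over its whole length and dips beyond -0.5 on chromosomes 3, 8, 9 and X.

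When each gene was centred on its neighbours, 401 of 606 genes higher by 2-fold or more and 787 of 1006 lower ones remained so. IL8, CXCL1 and IL6 had neighbour medians of -0.21, -0.24 and 0.30, TNFAIP3 of -0.07, TRIB3 of 0.16 and SESN2 of 0.10. DNA content was not measured, and the part of these regional values in the other results was not tested.

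Both labels carried the markers of the line. The 10 genes fixed as MDA-MB-231 markers summed to 10178 and 10276 under shSC and to 11196 and 11254 under shCHD4. Within them 5 were called higher and 3 lower, so the sums can hide differences of single members. VIM, which was higher, is a large part of each sum. CAV1 was higher too (353 and 376 against 658 and 696), and CD44 was lower (1248 and 1292 against 732 and 738). PLAU was the member past 2-fold, lower at 1177 and 1117 against 234 and 221 (-2.33). Of 5 genes known as absent from the line and present in the table, 4 were under 1 in every library, and GATA3 was at 14.3 and 14.6 against 10.7 and 10.0 (-0.47). Markers of other cell types were uneven, with some members near 0 and others expressed under both labels. The blood marker PTPRC was at 0.207 and 0.446 against 0.337 and 0.448, the endothelial CDH5 at 0.166 and 0.0371 against 0 and 0.0345, the fibroblast gene COL1A2 at 0.124 and 0 against 0 and 0.0345, and the neuronal gene NEFM had no read.

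Summed over whole marker lists, the levels lay in different ranges under the 2 labels. The 9 blood markers in the table summed to 153.7 and 154.7 under shSC and 171.7 and 174.9 under shCHD4, and 5 were under 1 in every library. For 12 endothelial markers the sums were 119.5 to 125.7 and 155.5 to 159.9, with 7 under 1, and ENG, a TGF-beta co-receptor, was higher at 34.3 and 32.05 against 88.9 and 90.9 while KDR was lower at 12.4 and 13.4 against 4.23 and 4.52. For 11 fibroblast markers the sums were 72.2 to 79.0 and 58.4 to 63.8, with 6 under 1. For 11 neuronal and melanocyte markers they were 123.6 to 127.9 and 176.4 to 182.7, with 7 under 1, and TUBB3 rose from 47.9 and 45.4 to 113 and 115. The part of these sums in the other results was not tested.

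The 4 libraries at 1% O2 are other libraries than the 4 compared at 20% O2 and held nearly the same label differences. Both sets of calls come from 1 fit over all 8 libraries and share its filter and its estimate of the spread. The hairpin labels are also the same, so the libraries at 1% O2 are not an independent repeat. Of the 623 genes higher by 2-fold or more at 20% O2, 619 were called higher at 1% O2 and 530 were higher by 2-fold or more, which is 85.1% of that set and 73.9% of the 717 such genes at 1% O2 (5.67% of tested genes). Of the 1021 lower genes, 1017 were called lower and 894 were lower by 2-fold or more, 87.6% of that set and 82.5% of the 1083 at 1% O2 (8.56% of tested genes). In each direction 1 gene was called the opposite way. At 1% O2, 77.4% of all tested genes were called, 38.2% higher and 39.2% lower. The interaction of label and O2 was called in 4.36% of tested genes, in 44 of the 623 (7.06%) and in 151 of the 1021 (14.8%). IL8 differed by -6.69 at 20% and -6.89 at 1% O2, and SESN2 by -3.98 and -3.85. DDIT4 was the named gene with the widest gap, at -3.94 and -1.68. IL6 and ERRFI1 differed by less at 1% O2 (-6.00 and -2.80), and ICAM1 and MMP1 by more (-4.499 and -3.18), each with a called interaction.

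**Figure D5:**
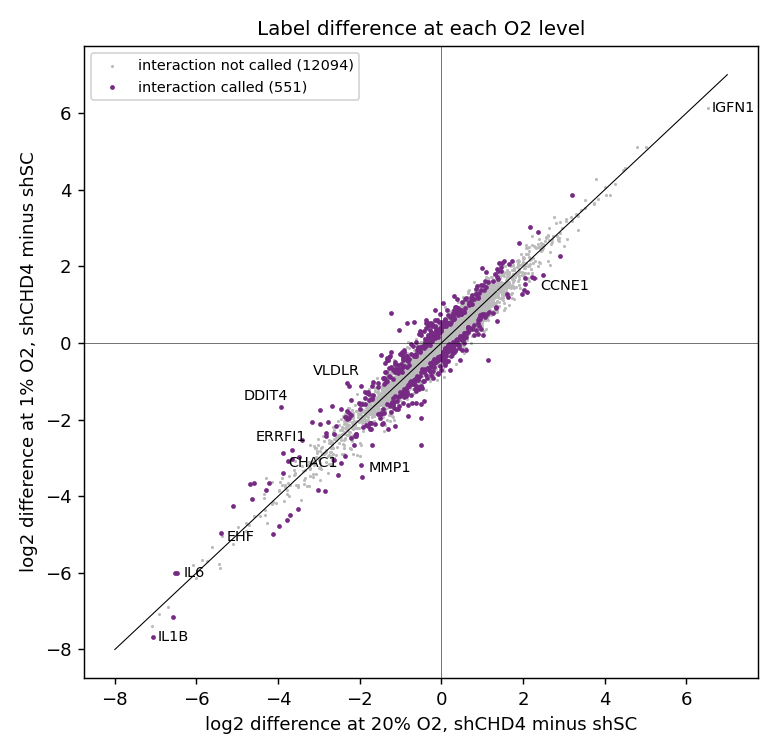
The log2 difference between labels of each tested gene at 20% O2 (horizontal axis) and at 1% O2 (vertical axis), from 4 libraries each, with the line of equal difference. Purple points are the 551 genes whose interaction of label and O2 was called, and most genes lie along the line from IL1B at the lower left to IGFN1 at the upper right.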

How the data were processed

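Tools listed without roles in the submitters' processing notes are TopHat, featureCounts and edgeR, besides Picard 1.127, FastQC 0.11.2 and bcl2fastq 2.17, with hg19 as the build. The deposited table is titled as FPKM, but by its values it holds a signal of reads that the authors scaled by 1 factor per library. With a tolerance of 0.01 reads, 100% of values were whole reads after rescaling, and on these edgeR called 9570 genes and DESeq2 8833. The design had assumed FPKM values, and the test stayed on the log scale.

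limma 3.58.1 (R 4.3.3, with variance trend) was fitted over all 8 libraries as 4 groups on log2(value + 0.5), with 4 residual and 13.9 prior degrees of freedom, for genes whose mean reached 1. edgeR 4.0.16 and DESeq2 1.42.0 gave alternatives, with other pseudocounts, filters, scalings, centring on neighbours, a replicate block and left-out libraries. Intervals on ratios of summed reads are exact, at 95%, and cover counting error only. The procedures were tested on simulated data. Python 3.11.15, pandas 2.3.3 and SciPy 1.17.1 made the summaries.

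Of 19583 rows, 27 carried names turned into dates and 4 shared a name. Symbols matched RefSeq (GRCh38.p14) directly for 17289 rows and by synonym for 1522, and that table gave gene order and promoters only. Named genes are the 20 largest rises and 20 largest falls among called genes whose higher group averaged 5 or more and whose groups do not overlap, CHD4, and up to 5 called members per list. Some genes that the rule names are not reported here. Other genes were added for their known roles after their values were seen. The 46 gene lists and the comparison were chosen with earlier results of these data known.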

Additional observations from a re-analysis of the deposited data

Results flagged for a closer look

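Each gene below had a label difference at 1% O2 that differed from its difference at 20% O2, by the interaction of label and O2 in the limma fit (adjusted p under 0.05). The value given is the log2 difference between labels at 1% O2 minus that at 20% O2. Genes lower under shCHD4 at 20% O2, and less so at 1% O2, were C3 (0.51), IL6 (0.47), EHF (0.44), HLA-DRA (0.86), ADAMTS6 (0.40), KRT7 (0.33) and CDH11 (0.42). The same held for KLF4 (0.39), ERRFI1 (0.85), GDF15 (0.56), CYR61 (0.22), DDIT4 (2.25), VLDLR (1.1265) and ARNT2 (0.58). To these belonged CHAC1 (1.02), SLC7A11 (0.42), MCL1 (0.22), HOXB9 (0.62), ASNS (0.33), MYC (0.25) and VEGFA (0.59). Other genes were lower under shCHD4 at 20% O2 and more so at 1% O2. Among these were IL1B (-0.61), IL1A (-0.59), TRAF1 (-0.80), TLR2 (-0.86), THBD (-0.32), SERPINE2 (-0.28), ITGA5 (-0.34) and COL27A1 (-0.81). Also on this side were ICAM1 (-0.80), LRIG1 (-0.31), NFKB1 (-0.29), NFKB2 (-0.36), RELB (-0.54), MMP1 (-1.20) and CA9 (-2.16). Genes higher under shCHD4 at 20% O2, and more so at 1% O2, were MCM3 (0.36), MAGED1 (0.34), MAP3K14 (0.47), IL18 (0.40), PCNA (0.30) and CCND1 (0.26). Genes higher under shCHD4 at 20% O2, and less so at 1% O2, were TIMP4 (-0.51), EGLN3 (-0.81), CCNE1 (-0.57), S100A10 (-0.42) and VIM (-0.37). The HLA-DRA value rests on 3 reads under shCHD4 at 20% O2 and is no measure of size, and the CA9 call at 20% O2 rests on 18 against 5 reads and is lost under 6 alternatives. Under shCHD4 at 20% O2, TLR2 had 7 reads, C3 28 and COL27A1 33, so on log2(value + 0.5) their values are likewise no measure of size. C3 and TIMP4 were close to the threshold, each with an interaction adjusted p of 0.0497 in the limma fit.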

How the results depend on the processing

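Counts were recomputed under 20 alternatives. Genes called numbered 8354 to 10355 over all of them and 8797 to 9588 over those that left out 1 library; called higher, 4259 to 4697 with 1 library left out, and called lower, 4538 to 4891. Lower calls outnumbered higher ones as reported, but quantile normalization gave 5292 higher and 4363 lower, and centring 4482 and 4424. The 2-fold counts were 623 to 648 higher and 1021 to 1055 lower with 1 library left out. On recovered reads edgeR called 777 and 1115 genes past 2-fold and DESeq2 784 and 1114. Genes higher by 2-fold or more fell to 394 with a filter on a mean of at least 5 and to 405 with a pseudocount of 2, since both leave out or shrink low genes. The same settings left 6 and 7 epithelial genes lower by 2-fold or more, against 11, and the filter left 4 class II genes, against 8. Centring on neighbours left 4 DNA replication genes higher by 2-fold or more, against 7.

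CHD4 passed the test after centring (0.20) and under quantile normalization (0.11), but not under the others; the latter moved the median of all genes to 0.060. Of 217 genes named in the text, 209 kept their direction and call throughout. The others were CA9, CHD3, HLA-C, LDHA, MTA2, MYD88, PGK1 and STAT3. Centring turned HLA-C to -0.47, STAT3 to -0.11 and LDHA to 0.14, and quantile normalization turned LDHA to 0.010. The number of list members called ranged from 687 to 736 with 1 library left out, and genes called the same way at both O2 levels from 8096 to 8436.

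Replicate numbers 1 and 2 recur in each group, but no label ties them to a culture or day. Deviations of same-numbered libraries at 20% O2 correlated at 0.12 over genes, from 2 libraries a group. With the replicate block 9536 genes were called, 623 of them higher and 1021 lower by 2-fold or more. Below a mean of 5, where the standard error was 0.157, small differences were not detectable at this depth.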

Other observations

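Some groups outside the comparisons above were thinly covered. Of 13 tested breast lineage markers, out of 22 listed, 8 were called lower, 4 by 2-fold or more, and 4 higher, 1 by 2-fold or more. Among them, TP63, a basal cell factor, had 198 reads under shSC and 14 under shCHD4, a ratio of 15.4 (95% interval 8.98 to 28.7). TFF3, a secreted trefoil peptide of luminal cells, had 10 reads against 135, a ratio of 12.4 (95% interval 6.53 to 26.4). Of 8 tested HOX genes 2 were called lower, both by 2-fold or more, and 1 higher. Of 14 tested immune checkpoint and adenosine genes 7 were called lower, 2 by 2-fold or more, and 4 higher, 1 by 2-fold or more. Of 6 tested metallothionein and zinc transport genes 4 were called lower, 1 by 2-fold or more, and 1 higher.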
